A study of Mus musculus with 16 samples.

Results

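Of the 13320 genes in the count table of mouse quadriceps muscle, 5 are described here as a metal-handling group: the metallothioneins Mt1 and Mt2, the zinc importer Slc39a14, the zinc exporter Slc30a1 and the zinc-sensing transcription factor Mtf1. They were taken by gene symbol, and all 5 were found in all 4 groups. RNA was sequenced from 16 muscles of male CD2F1 mice, aged 8 weeks at the start, in 4 groups of 4. In the splenic C26 group, C26 colon carcinoma cells were injected into the spleen, a route meant to seed the liver. Mice of the sham group had surgery and saline instead. The subcutaneous C26 mice carried the same tumour cells under the skin, and for the control group the labels do not state what the mice received. All mice were killed some weeks later, and RNA isolation and sequencing were done together for all libraries. The splenic C26 and sham libraries carry names of a different series from the subcutaneous C26 and control libraries, so each tumour group was set against the tumour-free group of its own series. The labels do not state that each library is a separate animal, so p-values measure only the spread between these samples.

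Metallothioneins are small cysteine-rich proteins that hold zinc and copper in the cytosol. The protein made by Slc39a14, ZIP14, carries zinc, and also iron and manganese, into the cytosol, and it has been linked to muscle wasting in metastatic cancer. ZnT1, made by Slc30a1, moves zinc out of the cell across the plasma membrane. MTF1 binds metal response elements when zinc is high and switches on Mt1, Mt2 and Slc30a1. The metallothionein genes are also known to respond to glucocorticoids and to interleukin-6 signalling through STAT3.

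The libraries had depths of 25.9 to 34.9 M counts, and all 9 muscle fibre markers were present, with a summed level of 88073 to 242597 CPM across libraries (CPM, the counts of a gene per M counts of its library, M standing for mega, with TMM scaling). The first principal component of all genes held 65.4% of the variance and placed all 8 tumour-free libraries at -60.8 to -55.4 and 6 tumour libraries at 64.6 to 93.3. The remaining pair, splenic C26 replicate 1 at -6.31 and subcutaneous C26 replicate 3 at 6.003, lay between them. Transcripts of other tissues were present in several libraries. All 4 control libraries had a summed level of 32.2 to 249 CPM for 10 hepatocyte markers, against 0.717 to 3.85 CPM in sham. Splenic C26 replicate 1 had 143 CPM for these markers, splenic C26 replicate 3 had 164 CPM for 7 neutrophil and marrow markers, and control replicate 1 had 45.7 CPM for the same 7. Subcutaneous C26 replicate 4 had 61.4 CPM for 2 proliferation markers.

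Mt1 and Mt2 lie side by side on the forward strand of chromosome 8 of the mm10 build. Mt2 spans 94172664 to 94173568 and Mt1 spans 94179082 to 94180327, with 5513 bases between them. Their coding sequences are 186 bases each, differ at 38 positions and are 79.6% identical. The second exon of each, 66 bases and wholly coding, is shown because it tells whether reads can be given to 1 gene of the pair. Capitals mark the 19 bases at which the exons differ, in mm10 on the forward strand, at chr8:94179823-94179888 for Mt1 and chr8:94173127-94173192 for Mt2.

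Mt1: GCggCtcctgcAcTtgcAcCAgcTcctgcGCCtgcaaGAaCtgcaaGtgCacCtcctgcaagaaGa

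Mt2: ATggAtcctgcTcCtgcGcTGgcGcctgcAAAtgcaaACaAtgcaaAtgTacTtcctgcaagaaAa

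The differences are spread along the exon, and the longest stretch that the annotated transcripts of the pair share is 20 bases. No window of 30 or 75 bases was common to both genes, with 75 bases being the read length. Reads of the pair can thus be separated by exact sequence, although the labels give no mapping settings.

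The sequences before the annotated gene starts are shown with matches to the core letters of the metal response element, the site that MTF1 binds. Capitals mark matches to the core letters TGCACNC or TGCGCNC on either strand. The windows come from RefSeq (GRCm38.p6), whose promoter table matched 4 of the 5 genes (Mt1, Mt2, Slc30a1 and Mtf1), and they are printed up to the base before the annotated gene: chr8:94178839-94179081 for Mt1, chr8:94172368-94172663 for Mt2 and chr1:191906531-191906766 for Slc30a1, all on the forward strand.

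Mt1: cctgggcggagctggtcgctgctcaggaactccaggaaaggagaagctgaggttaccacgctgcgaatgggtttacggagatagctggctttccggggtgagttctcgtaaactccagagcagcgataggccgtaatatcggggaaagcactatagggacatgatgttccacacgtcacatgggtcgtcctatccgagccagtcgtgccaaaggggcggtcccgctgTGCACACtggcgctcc

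Mt2: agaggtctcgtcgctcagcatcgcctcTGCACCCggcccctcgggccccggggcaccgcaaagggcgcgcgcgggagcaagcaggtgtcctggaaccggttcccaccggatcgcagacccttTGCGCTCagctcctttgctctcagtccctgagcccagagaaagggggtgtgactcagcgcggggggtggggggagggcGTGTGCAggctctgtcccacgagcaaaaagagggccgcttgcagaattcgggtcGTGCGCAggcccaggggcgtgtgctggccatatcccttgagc

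Slc30a1: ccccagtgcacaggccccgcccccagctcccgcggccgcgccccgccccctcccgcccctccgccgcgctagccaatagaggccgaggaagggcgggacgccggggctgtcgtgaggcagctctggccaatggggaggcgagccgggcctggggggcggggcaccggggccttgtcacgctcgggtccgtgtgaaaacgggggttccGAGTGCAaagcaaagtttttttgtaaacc

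Over the whole 300-base windows, from 250 bases before to 50 after the RefSeq start, the core occurred 4 times for Mt2, 3 times for Mt1, 2 times for Slc30a1 and 0 times for Mtf1. Some matches lie after the RefSeq start, at positions 3 and 21 for Mt1, 5 for Mt2 and 31 for Slc30a1. The match at 5 is the last one marked for Mt2, whose annotated gene begins after its RefSeq start. Of 32841 such windows in the mouse genome, 25.7% held at least 1 match, 7.12% at least 2, 1.97% at least 3 and 0.518% at least 4. The Mt1, Mt2 and Slc30a1 windows are therefore all among the richer ones for these letters. A STAT motif, TTCNNNGAA, was found in 0 of the 4 windows, against 8.30% of all windows. The antioxidant response element TGACNNNGC occurred 1 time for Mt2 and 1 time for Slc30a1, and 12.4% of all windows held it. A match is a description of letters and not evidence of binding.

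Both metallothioneins rose steeply in muscle of tumour-bearing mice, in both tumour models. Mt1 stood at 114, 1542, 2913 and 2496 CPM in splenic C26 replicates 1 to 4, against 9.94, 13.7, 8.999 and 8.61 CPM in sham. In the other model it stood at 1492, 1464, 234 and 1390 CPM in subcutaneous C26 replicates 1 to 4, against 11.5, 22.8, 12.5 and 9.08 CPM in control. Tumour and tumour-free libraries did not overlap: the lowest splenic C26 library was 8.36 times the highest sham library, and the lowest subcutaneous C26 library was 10.3 times the highest control library. How many of all genes show no overlap was not counted. The lowest tumour library of each group was the one that lay between the groups on the first component. The difference in Mt1 was 7.42 ± 0.89 on the log2 scale for splenic C26 against sham (SE; 95% interval 5.52 to 9.32; adjusted p = 5.99e-05, edgeR quasi-likelihood test), the 15th highest of 13320 genes. For subcutaneous C26 against control it was 6.36 ± 0.85 (95% interval 4.55 to 8.17; adjusted p = 0.000111, edgeR), the 4th highest.

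Mt2 stood at 87.9, 965, 1805 and 1606 CPM in splenic C26, against 4.17, 4.18, 2.28 and 2.67 CPM in sham. It stood at 1085, 988, 190.3 and 1007 CPM in subcutaneous C26, against 3.82, 13.5, 4.39 and 2.202 CPM in control. The same libraries were low within each tumour group as for Mt1, and again no tumour library overlapped its tumour-free group. Its difference was 8.39 ± 0.99 on the log2 scale for splenic C26 against sham (95% interval 6.29 to 10.50; adjusted p = 5.38e-05, edgeR), the 7th highest of all genes. It was 7.09 ± 0.93 for subcutaneous C26 against control (95% interval 5.11 to 9.08; adjusted p = 0.0001002, edgeR), the 2nd highest. Counts for Mt2 in tumour-free muscle were small, 78 to 141 per sham library and 65 to 456 per control library.

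Across both tumour comparisons the scale of the wider change was large. Of all genes, 52.0% passed an adjusted p of 0.05 in splenic C26 against sham, 28.1% higher and 23.9% lower. Of the 5 genes described here 4 passed, Mt1, Mt2 and Slc39a14 higher and Slc30a1 lower. In subcutaneous C26 against control, 50.0% of all genes passed, 27.0% higher and 23.1% lower, and 3 of the 5 did, all higher. Passing the test was therefore common in these muscles, and the ranks describe the size of each change. Higher genes made up 54.0% of the splenic C26 calls and 53.9% of the subcutaneous C26 calls, but 38.5% and 34.9% under upper-quartile scaling, where the median log2 difference of all genes became -0.24 and -0.26. In bulk tissue, fewer cells of a type and less RNA per cell cannot be told apart.

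**Figure D1:**
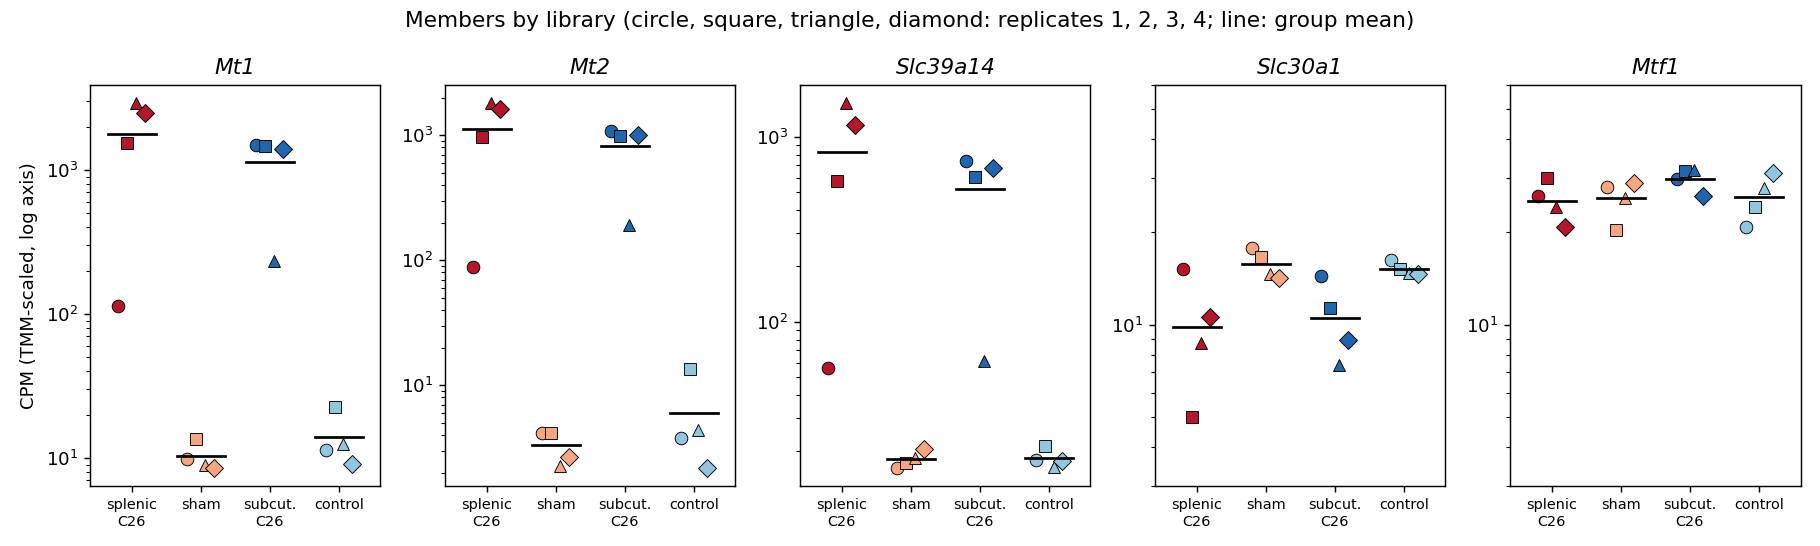
CPM of the 5 genes in each library on a log axis, 1 panel per gene, with splenic C26, sham, subcutaneous C26 and control from left to right; symbols are replicates 1 to 4 and lines are group means. For Mt1, Mt2 and Slc39a14, splenic C26 replicate 1 and subcutaneous C26 replicate 3 lie between the other tumour libraries and the tumour-free libraries. For Mtf1 the groups overlap.

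As a share of all counts, Mt1 and Mt2 together made up 0.0221, 0.225, 0.388 and 0.384% of splenic C26 libraries, against 0.00118 to 0.00216% of sham libraries. They made up 0.274, 0.231, 0.0341 and 0.222% of subcutaneous C26 libraries, against 0.00105 to 0.00422% of control libraries. Levels can be set between genes only per length. Per kilobase of the principal transcript, Mt1 averaged 3217 ± 2262 CPM in splenic C26 and 18.8 ± 4.21 CPM in sham, and 2086 ± 1108 CPM in subcutaneous C26 and 25.4 ± 11.0 CPM in control (SD, n = 4 each). Among 12868 genes ranked on that scale, Mt1 was 177th, 11th, 9th and 8th in splenic C26 replicates 1 to 4, against ranks 1750 to 2767 in sham. It was 9th, 11th, 107th and 12th in subcutaneous C26, against ranks 1077 to 2661 in control. In 6 of 8 tumour muscles Mt1 thus stood among the top 12 of the 12868 ranked genes on this scale. Mt2 averaged 2184 ± 1514 CPM per kilobase in splenic C26 and 6.51 ± 1.94 in sham, and 1600 ± 822 in subcutaneous C26 and 11.7 ± 9.98 in control.

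The balance between the pair also shifted. Mt1 gave 1.30, 1.60, 1.61 and 1.55 counts per Mt2 count in splenic C26, against 2.39, 3.27, 3.95 and 3.22 in sham. It gave 1.38, 1.48, 1.23 and 1.38 counts per Mt2 count in subcutaneous C26, against 3.01, 1.69, 2.83 and 4.12 in control. Every tumour library had a lower ratio than every library of its tumour-free group, so Mt2 gained on Mt1. The log2 ratio differed by -1.06 for splenic C26 minus sham and by -1.02 for subcutaneous C26 minus control, each with p = 0.0286 in a two-sided exact permutation test, also after adjustment over the 2 comparisons. That is the smallest p that 4 libraries against 4 allow. The intermediate libraries, splenic C26 replicate 1 and subcutaneous C26 replicate 3, had the lowest ratios of their groups although their metallothionein levels were the lowest. An annotated antisense transcript, Gm45774, shares 432 exon bases with Mt2, and the use of strand in the counting is not given in the sources used here.

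**Figure D2:**
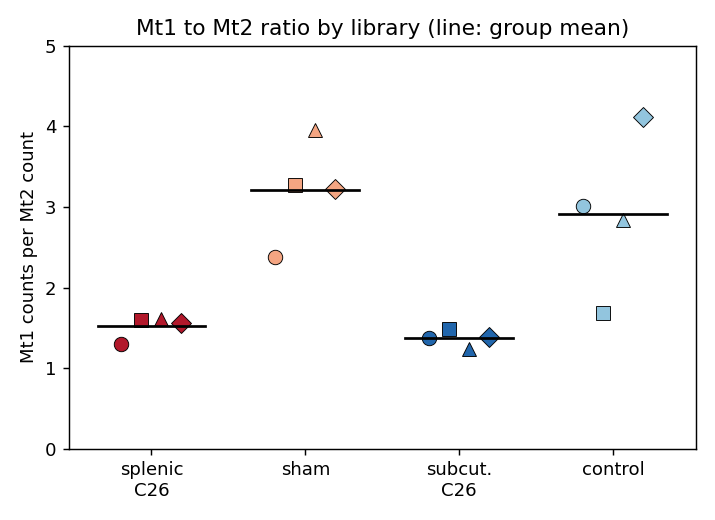
Mt1 counts per Mt2 count (linear axis from 0) in each library, with splenic C26, sham, subcutaneous C26 and control from left to right; symbols are replicates 1 to 4 and lines are group means. All splenic C26 libraries lie at 1.61 or lower, against 2.39 or higher in sham, and all subcutaneous C26 libraries lie at 1.48 or lower, against 1.69 or higher in control.

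Slc39a14 rose with the metallothioneins. The gene spans 70303469 to 70351425 on the reverse strand of chromosome 14 (mm10). It stood at 56.5, 579, 1520.3 and 1154 CPM in splenic C26, against 16.3, 17.1, 18.4 and 20.5 CPM in sham. In subcutaneous C26 it stood at 744, 607, 61.0 and 680.4 CPM, against 17.8, 21.3, 16.5 and 17.7 CPM in control. Tumour-free muscles were tightly grouped, and even the lowest tumour library was 2.75 times the highest sham library in the splenic model and 2.87 times the highest control library in the subcutaneous model. The difference was 5.52 ± 0.85 on the log2 scale for splenic C26 against sham (95% interval 3.70 to 7.33; adjusted p = 0.000248, edgeR), the 40th highest of all genes. For subcutaneous C26 against control it was 4.84 ± 0.83 (95% interval 3.08 to 6.59; adjusted p = 0.000452, edgeR), the 15th highest. Per kilobase, Slc39a14 averaged 168 ± 131 CPM in splenic C26 and 3.67 ± 0.378 in sham, and 106 ± 63.5 in subcutaneous C26 and 3.72 ± 0.421 in control (SD, n = 4 each), below both metallothioneins in each group on this per-length scale.

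Slc30a1, the exporter that MTF1 is known to activate together with the metallothioneins, did not rise. It lies on the forward strand of chromosome 1, from 191906767 to 191913247 (mm10). It stood at 15.1, 5.02, 8.70 and 10.6 CPM in splenic C26, against 17.8, 16.6, 14.6 and 14.2 CPM in sham, so 3 of 4 splenic C26 libraries were below every sham library and replicate 1 was inside the sham range. It stood at 14.4, 11.3, 7.37 and 8.89 CPM in subcutaneous C26, against 16.3, 15.2, 14.7 and 14.6 CPM in control. All 4 tumour libraries lay below all 4 controls, but narrowly, at 14.4 against 14.6 CPM for the closest pair. The share of all genes that separate in this way was not counted. Slc30a1 fell in splenic C26 against sham by 0.68 ± 0.26 on the log2 scale (95% interval -1.22 to -0.13; adjusted p = 0.0381, edgeR). In subcutaneous C26 against control the difference was -0.53 ± 0.26 (95% interval -1.08 to 0.01) and did not pass (adjusted p = 0.0957, edgeR). The splenic call was lost when any of 6 of the 8 libraries was left out (adjusted p 0.0540 to 0.0922 in edgeR), whereas without splenic C26 replicate 1 the difference was -0.96 (adjusted p = 0.00347, edgeR). The upper bounds of the intervals, -0.13 and 0.01, leave little room for a rise in Slc30a1. Whether MTF1 activity changed was not tested. An antisense transcript, 1700034H15Rik, shares 468 exon bases with it.

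Mtf1 itself showed no detected change. Its gene spans 124802104 to 124849800 on the forward strand of chromosome 4 (mm10). It stood at 26.1, 29.8, 24.2 and 20.7 CPM in splenic C26, against 28.05, 20.4, 25.7 and 28.8 CPM in sham. In subcutaneous C26 it stood at 29.7, 31.6, 31.8 and 26.1 CPM, against 20.8, 24.2, 27.7 and 31.1 CPM in control. The groups overlapped in both models. The difference was -0.03 ± 0.15 on the log2 scale for splenic C26 against sham (95% interval -0.35 to 0.29; adjusted p = 0.884, edgeR) and 0.20 ± 0.15 for subcutaneous C26 against control (95% interval -0.12 to 0.52; adjusted p = 0.276, edgeR), the second turning to -0.037 with upper-quartile scaling. The gene 1110065P20Rik on the opposite strand, which is in the count table, shares 721 exon bases with Mtf1.

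**Figure D3:**
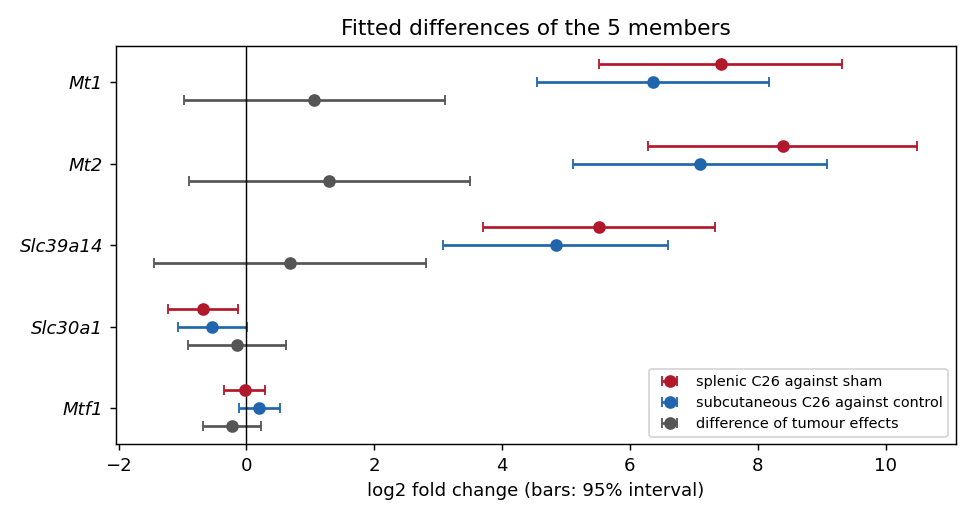
Log2 fold changes of the 5 genes for splenic C26 against sham, for subcutaneous C26 against control and for the difference of these tumour effects (grey). Points are edgeR estimates and bars are 95% intervals. In the tumour comparisons Mt2, Mt1 and Slc39a14 lie between 4.84 and 8.39, Slc30a1 at -0.68 and -0.53, and Mtf1 at -0.03 and 0.20. The differences of effects lie at 1.06 for Mt1, 1.30 for Mt2, 0.68 for Slc39a14, -0.14 for Slc30a1 and -0.23 for Mtf1.

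The tumour effects of the models were then set against each other, as the splenic difference minus the subcutaneous difference. No gene of 13320 passed in edgeR (0%), with 851 at an unadjusted p under 0.05, 0 passing in limma-voom and 86 in DESeq2. For Mt1 the effect was larger in the splenic model by 1.06 ± 0.96 on the log2 scale (95% interval -0.98 to 3.11; adjusted p = 0.935, edgeR), for Mt2 by 1.30 ± 1.03 (95% interval -0.90 to 3.50) and for Slc39a14 by 0.68 ± 0.998 (95% interval -1.45 to 2.80). The intervals of these genes span several log2 units in width, so the models are not shown to act alike on them. With 1 library left out, Mt1 ran from 0.71 (without splenic C26 replicate 3) to 1.47, Mt2 from 0.53 (without control replicate 2) to 1.71 and Slc39a14 from 0.21 (without splenic C26 replicate 3) to 1.09, each highest without splenic C26 replicate 1, and none passed. For Slc30a1 the difference of effects was -0.14 ± 0.36 (95% interval -0.92 to 0.63), and for Mtf1 it was -0.23 ± 0.21 (95% interval -0.68 to 0.22). The adjusted p of the last 4 genes ran from 0.921 to 0.984 in edgeR.

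Between the tumour-free groups, sham against control, 1 gene in all passed (0.00751%), with 285 at an unadjusted p under 0.05, and it was not among the 5. Mt1 differed by -0.44 ± 0.68 on the log2 scale and Mt2 by -0.85 ± 0.75, each with an adjusted p of 0.99996 in edgeR, and with 95% intervals of -1.90 to 1.02 and -2.45 to 0.75. Control replicate 2, the highest tumour-free library for both at 22.8 and 13.5 CPM, carried most of that gap: without it the differences were -0.094 and -0.065. Slc39a14, Slc30a1 and Mtf1 differed by -0.02 ± 0.71, 0.05 ± 0.26 and -0.01 ± 0.15. Against the rise in tumour muscle, the difference between sham and control was small.

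No other measured zinc transporter changed on the scale of Slc39a14. Of 14 importers of the Slc39 family, 10 were in the table, and in splenic C26 against sham 3 rose, 2 fell and 5 did not pass, with a median log2 difference of 0.07 against -0.03 over all genes. In subcutaneous C26 against control 3 rose, 0 fell and 7 did not pass, with a median of 0.05 against -0.02 over all genes. Beside Slc39a14 the risers were Slc39a10 and Slc39a7. Slc39a10, a plasma membrane importer, averaged 17.4 ± 2.66 CPM in splenic C26 and 11.1 ± 1.203 CPM in sham, and 15.99 ± 1.89 CPM in subcutaneous C26 and 10.5 ± 1.003 CPM in control (SD, n = 4 each). Its log2 differences were 0.65 ± 0.14 (adjusted p = 0.00152, edgeR) and 0.61 ± 0.14 (adjusted p = 0.00241, edgeR), each smaller than that of Slc39a14 by several log2 units. Slc39a7, which releases zinc from the endoplasmic reticulum, rose by 0.73 ± 0.20 in splenic C26 against sham (adjusted p = 0.00781, edgeR) and by 0.58 ± 0.20 in subcutaneous C26 against control (adjusted p = 0.0259, edgeR), and the second call was lost in 10 of 20 other settings. The importers that fell in splenic C26 against sham were Slc39a11, by 0.62 ± 0.17, with 2.55 ± 0.277 CPM in splenic C26 and 3.92 ± 0.291 CPM in sham (adjusted p = 0.0086, edgeR), and Slc39a3, by 0.62 ± 0.24 (adjusted p = 0.0393, edgeR), whose call was lost in 8 of 20 other settings. In subcutaneous C26 against control neither passed, at -0.29 for Slc39a11 and -0.32 for Slc39a3.

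Of 10 exporters of the Slc30 family, 7 were in the table. In splenic C26 against sham 1 rose, 2 fell and 4 did not pass, with a median log2 difference of -0.29, and in subcutaneous C26 against control 1 rose, 0 fell and 6 did not pass, with a median of -0.07. Slc30a5, which loads zinc into the early secretory pathway, rose in both, by 0.40 ± 0.15 (adjusted p = 0.0369, edgeR; lost in 9 of 20 other settings) and by 0.66 ± 0.15 (adjusted p = 0.00298, edgeR). Slc30a9, a mitochondrial zinc transporter, fell in splenic C26 by 0.46 ± 0.16 (adjusted p = 0.028, edgeR; lost in 5 of 20 other settings), and its difference in subcutaneous C26 was -0.32. The third call in splenic C26 was Slc30a1. The exporter count in splenic C26 was unsteady: with 1 library left out it ran from 0 to 5 called, being 0 without sham replicate 1 or splenic C26 replicate 4 and 5 (2 higher, 3 lower) without splenic C26 replicate 1, and without both intermediate libraries 2 rose and 4 fell. In subcutaneous C26 it ran from 1 to 3 with 1 library left out, with 1 higher and 2 lower without subcutaneous C26 replicate 1, and importers there ran from 2 to 3. With upper-quartile scaling 3 importers rose and 3 fell in splenic C26 and 2 rose and 1 fell in subcutaneous C26, and 0 exporters rose and 3 fell in splenic C26 and 1 rose and 3 fell in subcutaneous C26, with all 4 medians below 0. In splenic C26 5 of 10 importers and 3 of 7 exporters were called, against 52.0% of all genes, and in subcutaneous C26 3 of 10 importers and 1 of 7 exporters, against 50.0% of all genes.

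**Figure D4:**
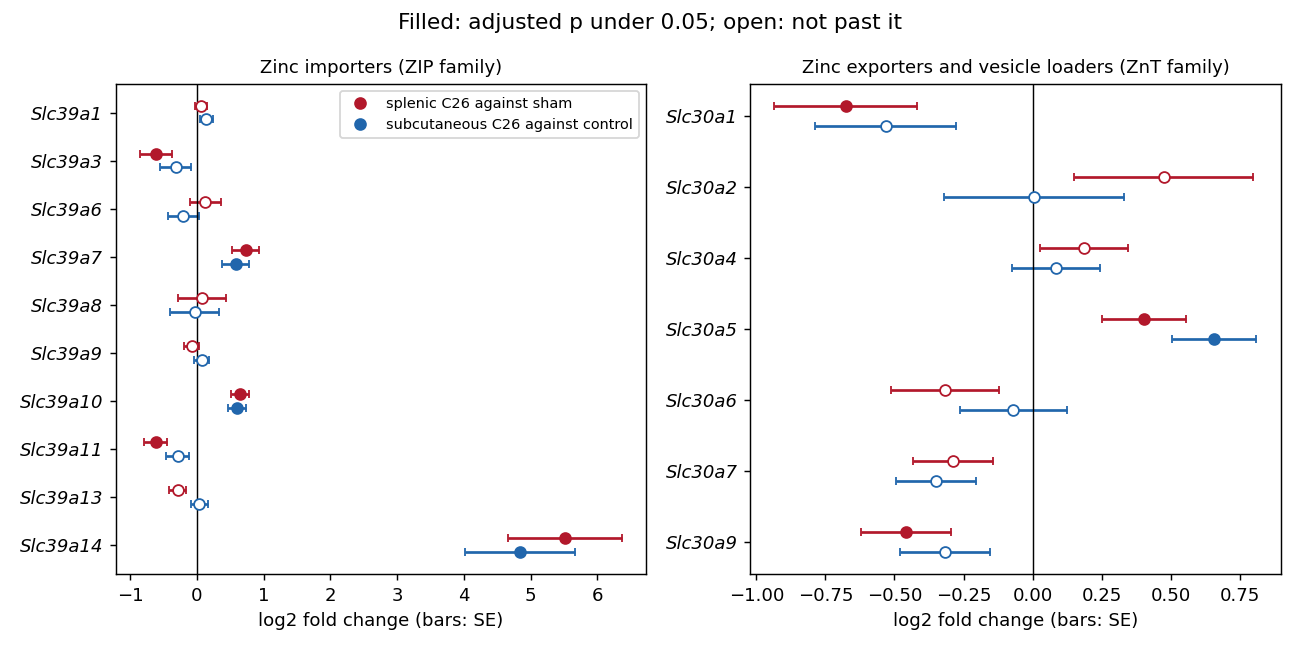
Log2 differences of the measured Slc39 importers (left) and Slc30 exporters (right) for splenic C26 against sham and subcutaneous C26 against control, with bars of 1 SE; filled symbols passed an adjusted p of 0.05. Slc39a14 lies at 5.52 and 4.84, and the next highest called importer at 0.73 and 0.61.

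Other genes reported to respond to MTF1 were few, so their share of calls cannot be told apart from that of all genes. Of 5 measured (Gclc, Slc39a10, Sepw1, Csrp1 and Ndrg1), 2 rose and 0 fell in each tumour comparison. Of all genes, 52.0% were called in splenic C26, 28.1% higher and 23.9% lower. In subcutaneous C26 50.0% were called, 27.0% higher and 23.1% lower. Median log2 differences of the list were 0.49 in splenic C26 and -0.23 in subcutaneous C26, against -0.03 and -0.02 over all genes. Besides Slc39a10 the riser was Gclc, the catalytic subunit of glutathione synthesis. It rose by 0.62 ± 0.14 in splenic C26 against sham (adjusted p = 0.0025, edgeR) and by 0.38 ± 0.14 in subcutaneous C26 against control (adjusted p = 0.0346, edgeR, lost in 10 of 20 other settings). Zinc is reported to lower Slc39a10 through MTF1 and to raise Gclc, so the list has no single direction.

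Genes of copper, the other metal that metallothioneins bind, were called in both directions. Of 11 measured copper genes, 2 rose and 4 fell in splenic C26 against sham, and 2 rose and 2 fell in subcutaneous C26 against control, with medians of 0.07 and -0.06. That is 6 of 11 and 4 of 11 called, against 52.0% and 50.0% of all genes. Sod1, the copper and zinc superoxide dismutase, averaged 298 ± 106 CPM in splenic C26 and 118 ± 12.0 CPM in sham, a rise of 1.34 ± 0.23 on the log2 scale (adjusted p = 0.000439, edgeR). It averaged 264 ± 47.8 CPM in subcutaneous C26 and 124 ± 4.598 CPM in control, a rise of 1.08 ± 0.23 (adjusted p = 0.00166, edgeR). Commd1, a regulator of copper export, fell by 0.98 ± 0.23 in splenic C26 (adjusted p = 0.0029, edgeR) and by 0.83 ± 0.23 in subcutaneous C26 (adjusted p = 0.00802, edgeR). The copper importer Slc31a1 fell by 0.43 ± 0.11 in splenic C26 (adjusted p = 0.00542, edgeR) and by 0.45 ± 0.11 in subcutaneous C26 (adjusted p = 0.00388, edgeR). The copper pump Atp7a rose by 0.84 ± 0.13 in subcutaneous C26 (adjusted p = 0.000274, edgeR) and by 0.39 ± 0.13 in splenic C26 (adjusted p = 0.0219, edgeR; lost in 8 of 20 other settings).

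Genes of IL-6 and STAT3, of glucocorticoids and of oxidative stress were described as well. Their part in the rise of the metallothioneins was not tested. All 10 measured IL-6 and STAT3 genes rose in both comparisons, with median log2 differences of 3.12 in splenic C26 and 3.13 in subcutaneous C26, where 28.1% and 27.0% of all genes rose. Among them Socs3, the feedback inhibitor of the pathway, averaged 127 ± 66.8 CPM in splenic C26 and 4.25 ± 0.497 CPM in sham, and 81.3 ± 34.2 CPM in subcutaneous C26 and 4.86 ± 0.866 CPM in control (SD, n = 4 each). Il6ra, the IL-6 receptor chain, rose by 3.94 ± 0.35 and 4.50 ± 0.36 on the log2 scale (splenic C26 against sham and subcutaneous C26 against control; adjusted p = 8.8e-06 and 5.16e-06, edgeR). In the same order the transcription factor Stat3 rose by 2.498 ± 0.26 and 2.19 ± 0.26, and Osmr, the receptor of oncostatin M, by 1.90 ± 0.22 and 1.90 ± 0.22 (largest adjusted p = 4.85e-05, edgeR). Of 8 glucocorticoid-induced genes, 7 rose and 0 fell in each comparison, with medians of 2.111 and 1.80. The transcription factor Zbtb16 averaged 287 ± 48.8 CPM in splenic C26 and 57.9 ± 5.75 CPM in sham, and 321 ± 71.6 CPM in subcutaneous C26 and 73.6 ± 11.9 CPM in control. Fkbp5, a chaperone of the glucocorticoid receptor, averaged 565 ± 272 CPM in splenic C26 and 38.4 ± 11.3 CPM in sham, and 420 ± 99.0 CPM in subcutaneous C26 and 58.4 ± 34.3 CPM in control. Glul, glutamine synthetase, rose by 2.296 ± 0.33 and 2.61 ± 0.34, and the transcription factor Klf9 by 0.96 ± 0.16 and 0.72 ± 0.16 (largest adjusted p = 0.00209, edgeR). Of 8 measured genes of oxidative stress and NRF2, 7 rose and 0 fell in each comparison, with medians of 0.93 and 1.07. Nfe2l2, which encodes NRF2, rose by 0.98 ± 0.14 and 1.27 ± 0.14, and Gclm, the modifier subunit of glutathione synthesis, by 1.76 ± 0.26 and 1.51 ± 0.25. Srxn1, sulfiredoxin, rose by 1.48 ± 0.22 and 1.46 ± 0.22, and the haem oxygenase Hmox1 by 1.96 ± 0.36 and 2.53 ± 0.37 (largest adjusted p = 0.000734, edgeR). These lists hold genes known to change in this model and were chosen with earlier results known, so their direction is no independent evidence.

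The genes whose profile over the 16 libraries came closest to each member were found from the root mean square difference of log2 CPM after centring each gene on its own mean. For Mt1 these were Mt2 at 0.59, Serpina3n at 0.82 and Lcn2 at 0.93, against a median of 3.42 over the 11527 genes compared. For Mt2 they were Mt1 at 0.59, Lcn2 at 0.84 and Serpina3n at 1.23, against a median of 3.91. The nearest gene of each metallothionein was thus the other. Serpina3n and Lcn2, which followed, are acute-phase genes of the IL-6 and STAT3 list, itself chosen with earlier results known. Doc2b and Mrgprg, outside that list, came next, at 0.98 and 0.99 for Mt1 and 1.36 and 1.35 for Mt2. The measure is not scaled, so genes with rises of similar size lie close by construction. For Slc39a14 they were Fam134b at 0.58, Cnksr1 at 0.59 and Ampd3 at 0.63, against a median of 2.60. For Slc30a1 they were Fancm at 0.22, Arl10 at 0.22 and Prickle2 at 0.23, against 0.62, and for Mtf1 they were Mier2 at 0.09, Ago2 at 0.09 and Sec23a at 0.10, against 0.46. The libraries share their groups, so such distances describe group structure as much as anything else.

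Markers of other cell types were set beside the metal genes. The summed level of 10 measured hepatocyte markers was 143, 2.46, 2.21 and 1.71 CPM in splenic C26, against 0.717 to 3.85 CPM in sham. It was 1.49 to 2.83 CPM in subcutaneous C26, against 32.2, 152, 48.0 and 249 CPM in control. Replicate 1 had the lowest Mt1 and Mt2 of splenic C26 and also lay between the groups on the first component of all genes. Without it, when no splenic C26 or sham library exceeded 3.85 CPM of hepatocyte markers, Mt1 differed by 7.82 ± 0.62 and Mt2 by 8.79 ± 0.77 on the log2 scale. In the subcutaneous model no control library was free of these transcripts. Summed neutrophil and marrow markers ran from 2.85 to 164 CPM in splenic C26, against 0.562 to 0.754 CPM in sham, and from 2.154 to 25.7 CPM in subcutaneous C26, against 0.576 to 45.7 CPM in control. Fibroblast markers, all 5 measured, summed to 333 to 1165 CPM in splenic C26, against 1415 to 1776 CPM in sham, and to 378 to 733 CPM in subcutaneous C26, against 1106 to 2008 CPM in control. Red blood cell markers, 3 of 6 measured, summed to 11.6 to 46.0 CPM in splenic C26, against 4.04 to 5.72 CPM in sham, and to 8.60 to 131 CPM in subcutaneous C26, against 3.70 to 14.1 CPM in control. Endothelial markers, all 4 measured, summed to 158 to 289 CPM in splenic C26, against 179 to 227 CPM in sham, and to 125 to 160 CPM in subcutaneous C26, against 222 to 249 CPM in control. Macrophage markers, all 4 measured, summed to 47.8 to 118 CPM in splenic C26, against 58.0 to 77.6 CPM in sham. In subcutaneous C26 they summed to 37.1 to 111 CPM, against 38.1 to 81.3 CPM in control. Adipocyte markers, all 4 measured, also overlapped between tumour and tumour-free libraries in both models. Only 2 of 7 epithelial or carcinoma markers were in the count table, so tumour cells in muscle could hardly be seen. The part of these cell types in the differences of the metal genes was not tested. An alternative left out splenic C26 replicates 1 and 3, control replicate 1 and subcutaneous C26 replicate 4 for hepatocyte, marrow or proliferation transcripts, but kept control replicates 2 to 4 with their hepatocyte transcripts. Mt1 then differed by 7.62 ± 0.68 and 6.16 ± 0.71 on the log2 scale, Mt2 by 8.61 ± 0.83 and 6.80 ± 0.86 and Slc39a14 by 5.59 ± 0.69 and 4.67 ± 0.72 (splenic C26 against sham and subcutaneous C26 against control; largest adjusted p = 0.000937, edgeR). Slc30a1 differed by -1.01 ± 0.30 in splenic C26 against sham (adjusted p = 0.0156, edgeR).

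**Figure D5:**
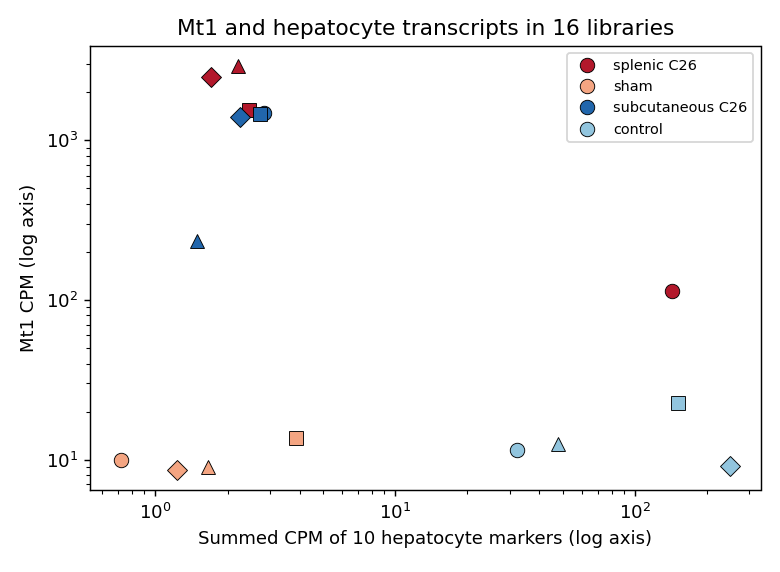
Mt1 CPM against the summed CPM of 10 hepatocyte markers in the 16 libraries, both on log axes; colours are groups. Splenic C26 replicate 1 lies at 143 CPM of hepatocyte markers and 114 CPM of Mt1, the other 7 tumour libraries at 1.49 to 2.83 CPM of hepatocyte markers and 234 CPM or more of Mt1, and the 4 control libraries at 32.2 CPM or more of hepatocyte markers and 22.8 CPM or less of Mt1.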

How the data were processed

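The table used holds raw counts per gene symbol that the authors made with STAR and featureCounts, per the labels; the submitters' processing notes also list FastQC, edgeR and the mm10 build. Tool versions, the gene annotation and strand handling are left unstated by these sources. A second table of normalized values on a log2 scale, deposited by the authors with no formula, served as an alternative. Blank lines (4013) were left out, leaving 13320 genes. edgeR 4.0.16 (R 4.3.3) was fitted to all 16 libraries with TMM scaling (factors 0.802 to 1.21), quasi-likelihood tests and Benjamini-Hochberg adjustment over all genes at 0.05; its low-count filter removed 0 genes. DESeq2 1.42.0 and limma 3.58.1 were alternatives. CPM use TMM scaling, and log2 CPM a prior count of 2. Transcript lengths and coordinates come from GENCODE M21, to which 12868 symbols matched. Named were the 5 members, up to 4 other genes per list past the threshold with the smallest p in either tumour comparison, and the 3 nearest genes per member. For Mt1 and Mt2 the next 2 genes were also named. Members and lists were chosen with earlier results of these data known. The code was tested on simulated data.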

Additional observations from a re-analysis of the deposited data

Results flagged for a closer look

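Mt1 and Mt2 each had a library standing far from the others of its group in subcutaneous C26, by the gap to the nearest library divided by the whole range of the 4 (limit 0.829). For Mt1, replicate 3 was lowest at 234 CPM, against 1390 to 1492 CPM in the others, a gap of 0.918 of the range. For Mt2, the same library was lowest at 190.3 CPM, against 988 to 1085 CPM, a gap of 0.891 of the range. The 5 genes and the ratio gave 24 groups to test, of which chance gives about 1 in 20. This is the library at 6.003 on the first component of all genes, between tumour-free and other tumour muscles.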

How the results depend on the processing

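Mt1, Mt2 and Slc39a14 kept their direction and their call in both tumour comparisons under every alternative run, between 4.31 and 8.79 on the log2 scale. Slc30a1 in splenic C26 against sham was -0.68 but did not pass at a limit of 0.01 (adjusted p = 0.0381, edgeR), nor within only the 8 libraries compared (-0.67, adjusted p = 0.0833, edgeR); leaving out 1 library gave -0.96 to -0.46. In subcutaneous C26 against control it passed with upper-quartile scaling (-0.78), within only the 8 libraries (-0.53, adjusted p = 0.0421, edgeR) and without subcutaneous C26 replicate 1 (-0.74); leaving out 1 library gave -0.74 to -0.40. Mtf1 in splenic C26 ran from -0.12 to 0.063 with 1 library left out, and in subcutaneous C26 it was -0.037 with upper-quartile scaling. That scaling moved the median of all genes to -0.24 and -0.26 and the higher share of calls to 38.5% and 34.9%, from 54.0% and 53.9%. At a limit of 0.01, 4408 and 4175 genes passed, against 6931 and 6665. The difference of tumour effects gave 86 genes in DESeq2, 257 without both intermediate tumour libraries (chosen after seeing the data) and 0 to 66 with 1 library left out; Slc30a1 there ran from -0.41 to 0.074. Sham against control gave 58 genes in DESeq2, 7 in limma on the deposited values, 0 at 0.01, 0 within only the 8 libraries, 47 without the 4 libraries left out for transcripts of other tissues, 46 without both intermediate libraries and 0 to 7 with 1 left out; Slc39a14 ran from -0.084 to 0.061, Slc30a1 from -0.0097 to 0.10 and Mtf1 from -0.11 to 0.087. The log2 ratio of Mt1 to Mt2 was -1.20 to -0.95 (splenic C26 minus sham) and -1.26 to -0.83 (subcutaneous C26 minus control) with 1 library left out, where no exact p under 0.0571 is possible, and -1.002 (exact p = 0.133) and -0.99 (exact p = 0.1) without those 4 libraries, which leaves 3 control libraries with hepatocyte transcripts. The causes were not tested. No paired analysis was possible because replicate numbers follow accession order and pair nothing. With 4 libraries per group, 1 library can set the width of an interval.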
